A study of Mus musculus with 10 samples.

Results

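The genes described here encode 9 structural and membrane proteins of the myelin of the central nervous system: Mbp, Mobp, Cnp, Mag, Mog, Mal, Cldn11, Opalin and Ermn. They were taken by symbol from a table of 21936 genes. All 9 were found, and all 9 were among the 14595 genes with enough reads to be tested. Spinal cord of wild-type (WT) mice was profiled by RNA sequencing at day 14 in experimental autoimmune encephalomyelitis (EAE), the standard rodent model of multiple sclerosis, where invading immune cells damage myelin. The 10 samples form 2 groups of 5, named Nar and EAE after their titles, where Nar stands for naringenin, a flavonoid of citrus fruit. Since the labels enter naringenin as the treatment of every sample, the handling of the EAE group remains unknown. The sources used here give neither immunogen, dose nor age of the mice, and cord of healthy mice was not analysed here. Whether the replicates are separate mice is not stated either, and the p-values below then cover only the spread between these samples, possibly a technical one.

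Myelin of the central nervous system is a sheet of oligodendrocyte membrane wound around an axon and compacted on both of its faces. Mbp (myelin basic protein) and Mobp (myelin-associated oligodendrocyte basic protein) are small basic proteins that hold the cytoplasmic faces together. Mog lies on the outermost surface of the sheath, Mag on the innermost one facing the axon, Cnp in the cytoplasmic channels that stay uncompacted, and Cldn11 in the tight junctions that run through the layers. Mal is a proteolipid of lipid-raft membrane, Opalin a transmembrane glycoprotein of mature oligodendrocytes, and Ermn (ermin) a cytoskeletal protein that binds actin. Several of them, Mbp and Mog among them, are known targets of the immune attack in EAE. In bulk RNA, fewer cells of a type and less RNA per cell cannot be told apart.

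All 9 genes had a higher mean in Nar than in EAE, by 1.06-fold (Mag) to 1.36-fold (Opalin). The median log2 fold change of the 9 was 0.27, beside 0.02 over all 14595 genes tested. Mal, Mobp and Ermn rose, 3 of the 9 genes, at an adjusted p below 0.05 in edgeR's quasi-likelihood test with Benjamini-Hochberg adjustment over all genes, and 0 fell. Over all genes tested 1.58% were called higher by this rule and 2.36% lower. The same 3 genes were the ones whose 5 Nar values all lay above the 5 EAE values, a pattern that 2.67% of all genes tested showed. The other 6 genes did not pass the test. At an unadjusted p below 0.05, in either direction, stood 6 of the 9 genes and 3290 of the 14595 genes tested. Later edgeR counts at that unadjusted p, from all 10 samples without a covariate, are to be read beside this background. DESeq2 and limma-voom each called 4 of the 9 (3.37% and 2.06% of all their tested genes called higher), as did edgeR blocked on the replicate number (1.27%) and edgeR without Nar 4 (2.61%) or without EAE 3 (3.08%). Without EAE 2 it also called 4 (184 of 14653 genes higher). Some other fits called fewer. Without Nar 1 or Nar 5 edgeR called 1 (52 and 55 of 14737 genes higher). Without Nar 2, Nar 3, EAE 4 or EAE 5 it called 2 (242 of 14747, 71 of 14745, 141 of 14616 and 128 of 14630 genes higher). With the mitochondrial share of reads as a covariate it called 0 (0.884% of all genes higher).

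Reads per sample numbered 14504726 to 15139706 in Nar and 16658798 to 18961501 in EAE, so the totals of the groups did not overlap, and anything that goes with the total cannot be told apart from the group. On the first principal component of all tested genes (45.8% of the variance) Nar 1, 2, 3 and 5 had scores of −35.2 to −24.6, whereas EAE samples had 8.17 to 34.9. Nar 4 scored 16.1, inside the EAE range, and several results in which it stood apart from the other Nar samples are also given without it. Mitochondrial RNA made up 7.04 ± 0.401% of counted reads in Nar (SD, n = 5), against 5.69 ± 0.893% in EAE (SD, n = 5). By the exact permutation test this difference had a two-sided p of 0.032. Oligodendrocyte RNA was abundant in every sample: the 9 genes alone took 2.40 to 2.95% of counted reads in Nar samples and 1.95 to 2.61% in EAE samples.

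The stretches just before the start sites of the 3 genes that rose, and of Mag, the gene with the smallest difference, are shown because these genes differed in how far apart the groups lay. They are RefSeq sequences of the mouse build GRCm38.p6, printed 5′ to 3′ on the strand of the gene, and end at the base before the gene in the deposited coordinates. Capitals mark the letters searched for on both strands. ACAAAG, which reads as CTTTGT from the other strand, is a core recognised by SOX factors such as Sox10. ACAAT, which reads as ATTGT from the other strand, is a further core of this kind. CTGGCAC, which reads as GTGCCAG from the other strand, is a core recognised by Myrf, the factor that switches on myelin genes. No 2 of the matches shown overlap.
Mobp, chr9:120149492-120149706, plus strand: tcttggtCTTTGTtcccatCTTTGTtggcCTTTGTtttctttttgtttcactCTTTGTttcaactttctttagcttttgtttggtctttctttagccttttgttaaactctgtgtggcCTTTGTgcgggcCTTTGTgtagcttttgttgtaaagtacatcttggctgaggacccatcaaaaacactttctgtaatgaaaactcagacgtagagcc
Mal, chr2:127656696-127656945, minus strand: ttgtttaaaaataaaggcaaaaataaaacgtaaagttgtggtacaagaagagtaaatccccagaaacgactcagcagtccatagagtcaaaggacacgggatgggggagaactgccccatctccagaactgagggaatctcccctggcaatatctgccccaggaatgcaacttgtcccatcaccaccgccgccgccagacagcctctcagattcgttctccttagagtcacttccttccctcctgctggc
Ermn, chr2:58052865-58053114, minus strand: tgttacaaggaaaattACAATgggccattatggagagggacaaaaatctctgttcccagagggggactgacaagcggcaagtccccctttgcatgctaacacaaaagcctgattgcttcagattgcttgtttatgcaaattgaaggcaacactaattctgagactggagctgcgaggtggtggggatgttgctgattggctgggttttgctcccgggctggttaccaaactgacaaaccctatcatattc
Mag, chr7:30914874-30915113, minus strand: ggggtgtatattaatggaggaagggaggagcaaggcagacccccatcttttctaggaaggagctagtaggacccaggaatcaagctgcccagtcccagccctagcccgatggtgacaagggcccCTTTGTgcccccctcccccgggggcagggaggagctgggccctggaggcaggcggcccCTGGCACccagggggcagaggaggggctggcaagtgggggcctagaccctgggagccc
The Mobp stretch held 6 matches to ACAAAG or its complement, and 1 of 32817 promoter windows of 250 bases (0.00305%), that of Mobp itself, held at least as many. This cut-off was the count of Mobp itself, so the share is a description and no test. The matches lie in a T-rich stretch that also repeats TTTTGT. Mal held 0 matches to any of the motifs, Ermn held 1 match to ACAAT, and Mag held 1 match each to ACAAAG and CTGGCAC. Promoters of 8 of the 9 genes were in the table, as 10 windows, since a gene can have more than 1 and those of Mag overlapped. A gene was counted if any of its windows matched, while the percentages below are of windows. Of the 10 windows ACAAAG was in 5, ACAAT in 1 and CTGGCAC in 3. ACAAAG was found in 4 of these 8 genes (Mag, Mobp, Cnp and Opalin) and in 16.5% of all windows, ACAAT in Ermn and in 27.7%, and CTGGCAC in Mag and Cnp and in 4.19%. CAGCTG, a core of basic helix-loop-helix factors and its own complement, was in 0 of the 8 genes and in 13.0% of windows. TATAAA, the TATA box, whose other strand reads TTTATA, was in 0 of the 8 genes and in 12.4%. The genes that rose did not share any of these motifs in this window. A match is a run of letters, and binding was not measured.

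Levels of different genes are compared per gene length, as FPKM, fragments per 1000 bases of gene and 1000000 reads. In Nar the order of mean FPKM was Mbp 2231, Mobp 632, Cnp 324, Cldn11 285, Mal 252, Mag 206, Mog 161, Ermn 111 and Opalin 17.4. In EAE it was Mbp 1886, Mobp 510, Cnp 291, Cldn11 248, Mal 198, Mag 197, Mog 127, Ermn 94.5 and Opalin 13.0. The order of the 9 genes was thus the same in both groups, with the compacting protein Mbp far above the rest. Most neighbours in this order did not overlap in FPKM over the 5 samples of a group. The exceptions were Cnp with Cldn11 in both groups, Cldn11 with Mal in Nar, and Mal with Mag in EAE. Mal and Mag were therefore nearly level in EAE (Mal above Mag in 3 of 5 samples), while in Nar Mal was above Mag in 5 of 5. The Mbp count covers the whole gene, which also makes the larger Golli transcripts, and these were not separated here.

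**Figure D1:**
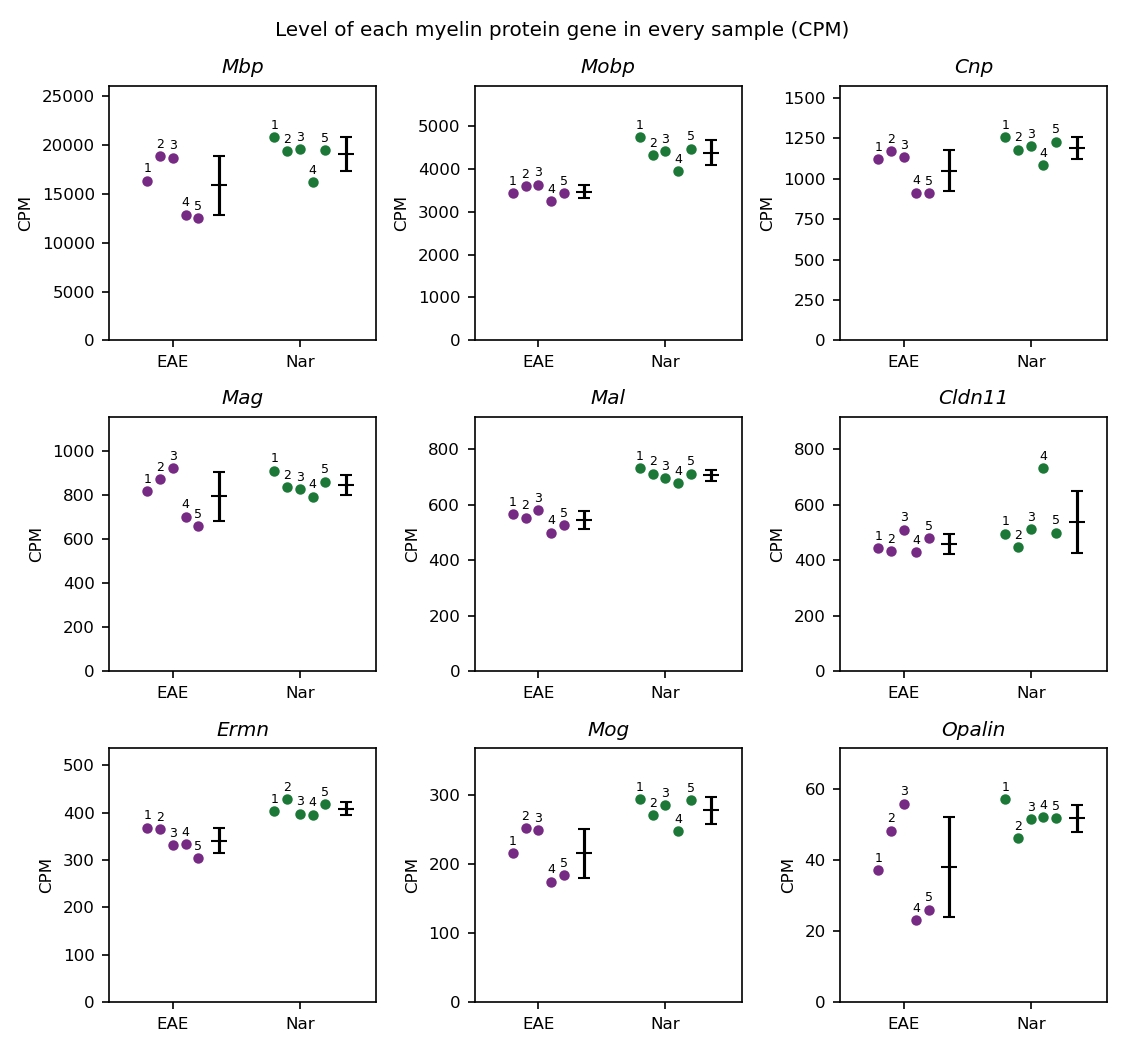
Level of each gene in CPM, counts per 1000000 reads (linear axis from 0), in the 5 EAE (purple) and 5 Nar (green) samples, numbered by replicate, with the mean and SD of each group as a horizontal tick and bar. Mal, Mobp and Ermn show Nar samples that all lie above the EAE samples, and Cldn11 shows Nar 4 alone at 733.

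The proteins that compact the sheath come first. Mobp (9:120149707-120181484 on GRCm38, plus strand) stood at 4740, 4322, 4402, 3937 and 4467 CPM (counts per 1000000 reads, with totals scaled between samples) in Nar 1 to 5. Its EAE 1 to 5 values were 3426, 3599, 3630, 3240 and 3425 CPM. The lowest Nar sample, Nar 4, was above the highest EAE sample, EAE 3. Its log2 fold change was 0.34 (SE 0.0597, 95% interval 0.21 to 0.46, edgeR adjusted p = 0.00913), a rise of 1.26-fold. The call was lost without Nar 1 (adjusted p = 0.0551) and without Nar 5 (0.0562).

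Mbp, the most abundant of the 9, stood at 20843, 19351, 19580, 16226 and 19459 CPM in Nar 1 to 5. EAE 1 to 5 stood at 16350, 18902, 18700, 12864 and 12551 CPM. The groups overlapped: EAE 2 and EAE 3 were above Nar 4, while the other 4 Nar samples were above every EAE sample. The log2 fold change of 0.27 (95% interval 0.01 to 0.53) did not pass (edgeR adjusted p = 0.210). Without both Nar 4 and EAE 3, a choice made after their values were seen, it was 0.38 (edgeR adjusted p = 0.0406). In that fit 5 of the 9 genes rose, Mog and Mbp in addition, where 4.60% of all genes tested were called higher.

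Mal (2:127633226-127656695, minus strand), the raft proteolipid, separated the groups by the smallest p of the 9. It stood at 732, 712, 696, 678 and 712 CPM in Nar 1 to 5. The 5 EAE samples, in order, had 567, 553, 580, 500 and 526 CPM. Every Nar sample, Nar 4 included, was above every EAE sample, and the coefficient of variation was 2.86% in Nar and 5.91% in EAE. The log2 fold change was 0.37 (SE 0.0534, 95% interval 0.26 to 0.49, edgeR adjusted p = 0.00283), a rise of 1.30-fold. Mal was called in 10 of 10 fits that left out 1 sample each, with a log2 fold change of 0.34 to 0.39.

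Ermn (2:58045113-58052864, minus strand), the actin-binding protein, stood at 403, 429, 397, 395 and 417 CPM in Nar 1 to 5. EAE 1 to 5 gave 368, 365, 331, 334 and 304 CPM. The groups did not overlap, but the gap between Nar 4 and EAE 1 was about as wide as the SD of the EAE samples (26.3 CPM). Its rise of 1.20-fold (log2 fold change 0.26, SE 0.0599, edgeR adjusted p = 0.0297) was called in only 4 of 10 fits that left out 1 sample. It was lost without Nar 1, 2, 3 or 5 and without EAE 4 or 5, with a largest adjusted p of 0.114. Exons of Galnt5, a gene on the opposite strand, overlap 6.52% of the Ermn exon bases, and without a strand-marking step such reads cannot be told apart.

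Among the surface proteins, Mog (17:37010743-37023398, minus strand) had a fold change as large as that of Mal but a wider spread. It stood at 294, 271, 285, 247 and 292 CPM in Nar 1 to 5. Against these, EAE 1 to 5 had 216, 252, 249, 175 and 184 CPM. Nar 4 was below EAE 2 and EAE 3, and the other Nar samples were above every EAE sample. The log2 fold change of 0.37 (SE 0.101, 95% interval 0.15 to 0.59) missed the threshold (edgeR adjusted p = 0.0597). It passed without Nar 4 (0.41, adjusted p = 0.0231), without EAE 2 (adjusted p = 0.0340), without EAE 3 (0.42, adjusted p = 0.0295) and in a fit blocked on the replicate number (0.38, adjusted p = 0.0354).

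Mag, the adhesion protein facing the axon, had the smallest difference of the 9. It stood at 911, 835, 828, 793 and 862 CPM in Nar 1 to 5. The EAE samples 1 to 5 lay at 818, 873, 924, 702 and 660 CPM. EAE 3 was the highest of all 10 samples, so the groups overlapped fully at the top. The log2 fold change of 0.09 had a 95% interval from −0.10 to 0.27 (edgeR adjusted p = 0.565), which holds no change and a difference as large as that of Ermn.

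Opalin, the least abundant of the 9 with 435 to 982 reads per sample, varied most between EAE samples. It stood at 57.3, 46.3, 51.5, 52.1 and 51.9 CPM in Nar 1 to 5. For EAE 1 to 5 the levels were 37.3, 48.4, 56.0, 23.1 and 26.2 CPM. EAE 3 was more than 2-fold above EAE 4, a gap wider than any between Nar samples, and Nar 2 was below EAE 2 and EAE 3. The log2 fold change of 0.44 was the largest of the 9 and had the largest SE, 0.223 (95% interval −0.05 to 0.94, edgeR adjusted p = 0.271).

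Cnp, the enzyme of uncompacted myelin, stood at 1258, 1179, 1200, 1084 and 1229 CPM in Nar 1 to 5. Its levels in EAE 1 to 5 were 1123, 1171, 1132, 913 and 912 CPM. Only Nar 4 lay inside the EAE range, and the log2 fold change of 0.18 (95% interval 0.01 to 0.35) did not pass (edgeR adjusted p = 0.199). Exons of Dnajc7 on the opposite strand overlap 4.23% of the Cnp exon bases.

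Cldn11, the tight junction protein, stood at 496, 447, 512, 733 and 500 CPM in Nar 1 to 5. The EAE values, 1 to 5, were 444, 433, 510, 428 and 479 CPM. Nar 4 alone was far above the rest, and the other 4 Nar samples lay at 447 to 512 beside 428 to 510 in EAE. The log2 fold change of 0.23 (edgeR adjusted p = 0.261) was 0.09 without Nar 4 (adjusted p = 0.437). Cldn11 was thus the 1 gene of the 9 that was highest in Nar 4, the Nar sample in which Mbp, Mobp, Cnp, Mag, Mog, Mal and Ermn were lowest.

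**Figure D2:**
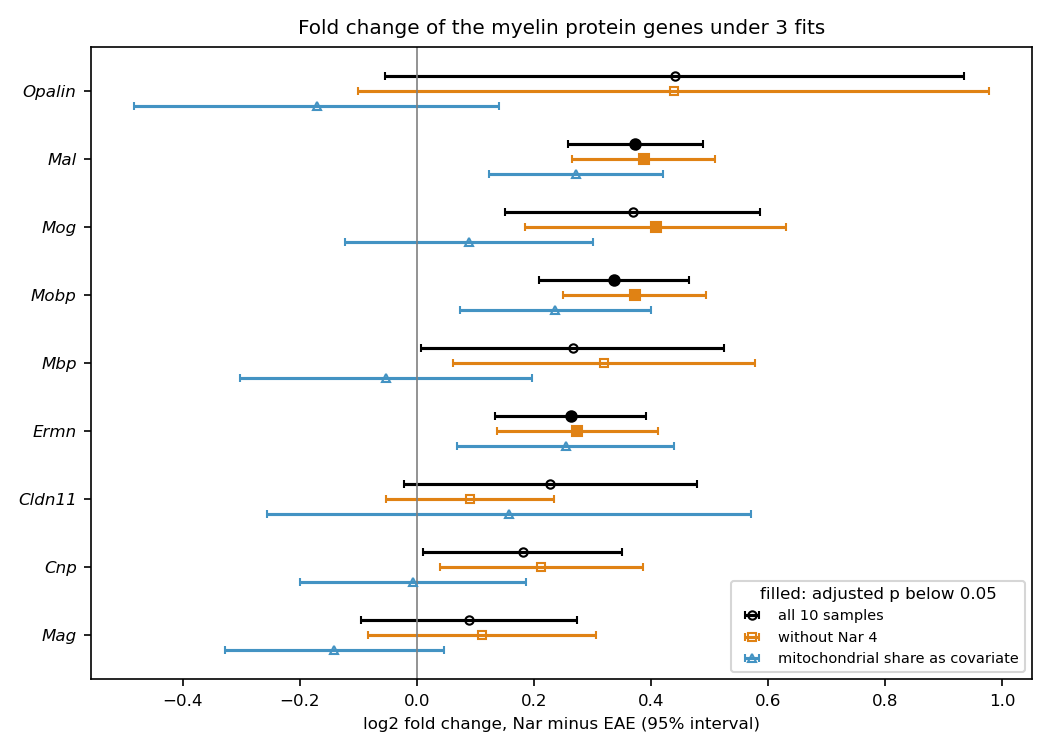
Log2 fold change, Nar minus EAE, of each gene with its 95% interval in the fit of all 10 samples (circles), without Nar 4 (squares) and with the mitochondrial share of reads as a covariate (triangles); filled symbols have an adjusted p below 0.05. All 9 values lie above 0 in the first 2 fits, and with the covariate 4 of the 9 lie below 0 and none is filled.

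The mitochondrial share of reads differed between the groups, and the fit was repeated with it as a term. With that share as a covariate edgeR called 0 of the 9 genes, where 0.884% of all genes were called higher, and 3 of the 9 were higher at an unadjusted p below 0.05. How many of all genes reached that unadjusted p in this fit is not given here. Of the 9 values 5 were above 0. In that fit the log2 fold change was 0.27 for Mal (edgeR adjusted p = 0.0667), 0.24 for Mobp (0.124), 0.25 for Ermn (0.145), 0.16 for Cldn11 (0.724) and 0.09 for Mog (0.700). The value of Ermn was thus close to its 0.26 without the covariate, while that of Mog was 0.37 there. The values for Mbp (−0.05), Cnp (−0.0065), Mag (−0.14) and Opalin (−0.17) were below 0, and none of these passed the test. Within EAE the order of the samples by the mean of the 9 genes was EAE 3, 2, 1, 5 and 4, which was also their order by mitochondrial share (7.01, 5.92, 5.71, 5.19 and 4.62%). Within Nar the 2 orders differed. The part of the mitochondrial share in the group difference was not tested beyond this fit.

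Most of the 9 genes varied more between EAE samples than between Nar samples. The coefficient of variation was larger in EAE for 7 of the 9, as for 62.6% of all tested genes of at least 10 CPM. The coefficient of variation in EAE was over 2 times that in Nar for 7 of the 9 genes (77.8%), a relation that held for 25.2% of all tested genes of at least 10 CPM. Mobp (6.64% in Nar, 4.54% in EAE) and Cldn11 (20.8% in Nar, 7.59% in EAE) were the exceptions. The EAE samples were split, with EAE 2 and EAE 3 high and EAE 4 and EAE 5 low. On the log2 scale, the mean deviation of the 9 genes from the group mean was 0.19 in EAE 3, 0.15 in EAE 2, 0.05 in EAE 1, −0.18 in EAE 5 and −0.21 in EAE 4. In Nar it ran from −0.04 to 0.07, with Cldn11 and most other members deviating in opposite directions in Nar 4. Over the 8 genes without Cldn11 it ran from −0.11 in Nar 4 to 0.09 in Nar 1, and from −0.23 to 0.20 in EAE. Opalin spanned most, from −0.64 in EAE 4 to 0.63 in EAE 3.

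**Figure D3:**
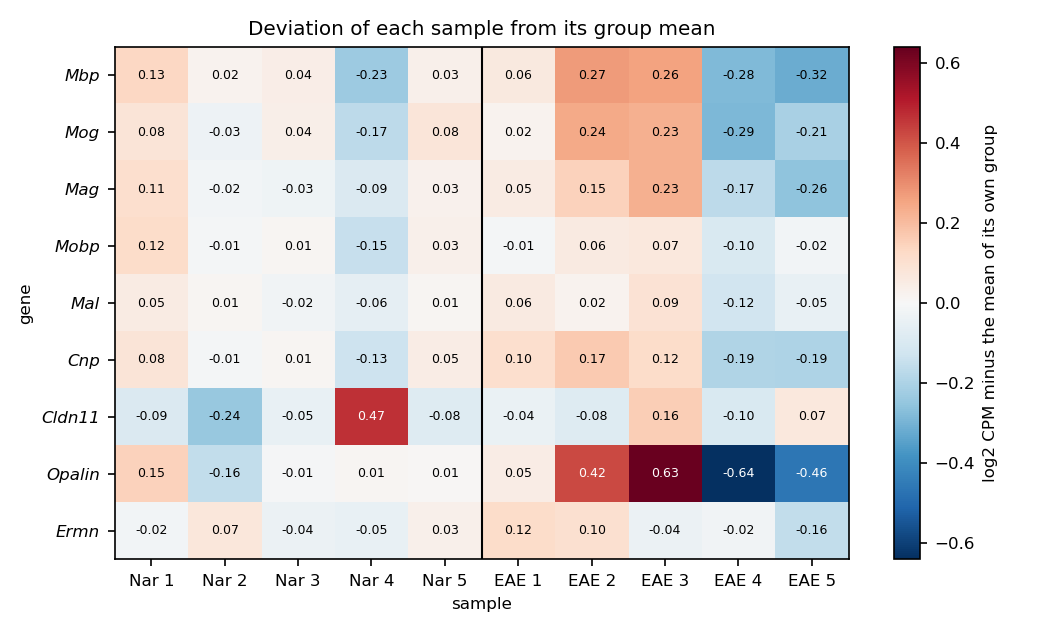
Log2 CPM of each gene (rows) in each sample (columns) minus the mean of its own group, from blue (below) to red (above), with the value printed in each cell; the black line divides Nar from EAE. EAE 4 and EAE 5 are blue and EAE 2 and EAE 3 red in most rows, from −0.64 to 0.63 for Opalin, and Cldn11 in Nar 4 is red at 0.47 where Mbp is blue at −0.23.

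The 9 genes followed one another to different degrees within the groups. Over the 10 samples after subtraction of the group means, the correlation of a gene with the mean of the other 8 was 0.96 for Opalin, 0.95 for Mag, 0.95 for Mog, 0.92 for Mbp, 0.92 for Cnp and 0.86 for Mal. It was 0.62 for Mobp, 0.42 for Ermn and −0.14 for Cldn11. These are descriptions over 10 samples, and the genes of a sample share its library, depth and dissection. The 5 genes of at least 10 mean CPM closest to this shared pattern, of 10545 compared, were Pdlim2 (r = 0.996), Arl2 (0.983), Pcbp4 (0.975), Ecsit (0.973) and Ptn (0.973). All 5 of these genes lie outside the oligodendrocyte lists used here, and 0 of them passed the test between the groups (edgeR adjusted p = 0.174 to 0.909).

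Ratios between the genes within a sample do not depend on how libraries are scaled, and show whether the 9 genes differed from each other in their change. Of the 36 ratios, 0 passed a two-sided exact permutation test after Benjamini-Hochberg adjustment over the 36 (smallest adjusted p = 0.0714), while 9 had an unadjusted p below 0.05. The smallest unadjusted p that 5 against 5 samples allow is 0.0079. At that p stood 4 ratios whose groups did not overlap, and all 4 involved Mag or Cnp. Over 36 tests, 4 ratios at the smallest possible p only reach an adjusted p of 0.0714. That 0 passed therefore does not show that these ratios stayed the same. Mog relative to Mag was higher in Nar by 0.28 on the log2 scale, Mal relative to Cnp by 0.19 and Mog relative to Cnp by 0.19. The difference of Mag relative to Mal was −0.28: log2 ratios were 0.31, 0.23, 0.25, 0.23 and 0.28 in Nar 1 to 5 and 0.53, 0.66, 0.67, 0.49 and 0.33 in EAE 1 to 5. Without EAE 5, 6 of the 36 ratios passed, among them all 4 named here.

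Relative to neuronal RNA, taken as the mean log2 CPM of 14 neuron genes in the same sample, 4 of the 9 genes were higher in Nar after adjustment over the 9 comparisons (Mog, Mobp, Mal and Ermn, two-sided exact permutation p = 0.0079 each). The differences were 0.40 for Mog, 0.35 for Mobp, 0.39 for Mal and 0.28 for Ermn on the log2 scale. Mog passed here under adjustment over 9 comparisons but missed in edgeR under adjustment over all genes (adjusted p = 0.0597). Nar 2 gave the lowest Nar value for Mog, Mobp and Mal. Relative to 11 oligodendrocyte transcription factor genes, 3 of the 9 were higher (Mobp by 0.35, Mal by 0.39 and Ermn by 0.28, two-sided exact permutation p = 0.0079 each). Without EAE 3, 5 of the 9 passed on this scale, Mog and Opalin in addition. On both scales only the 9 genes were tested, so how many of all genes would pass is not known. In Nar 4 the values of every gene but Cldn11 relative to the transcription factors were the lowest of the Nar samples, with Mbp, Mog and Mobp at 8.48, 2.44 and 6.43.

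**Figure D4:**
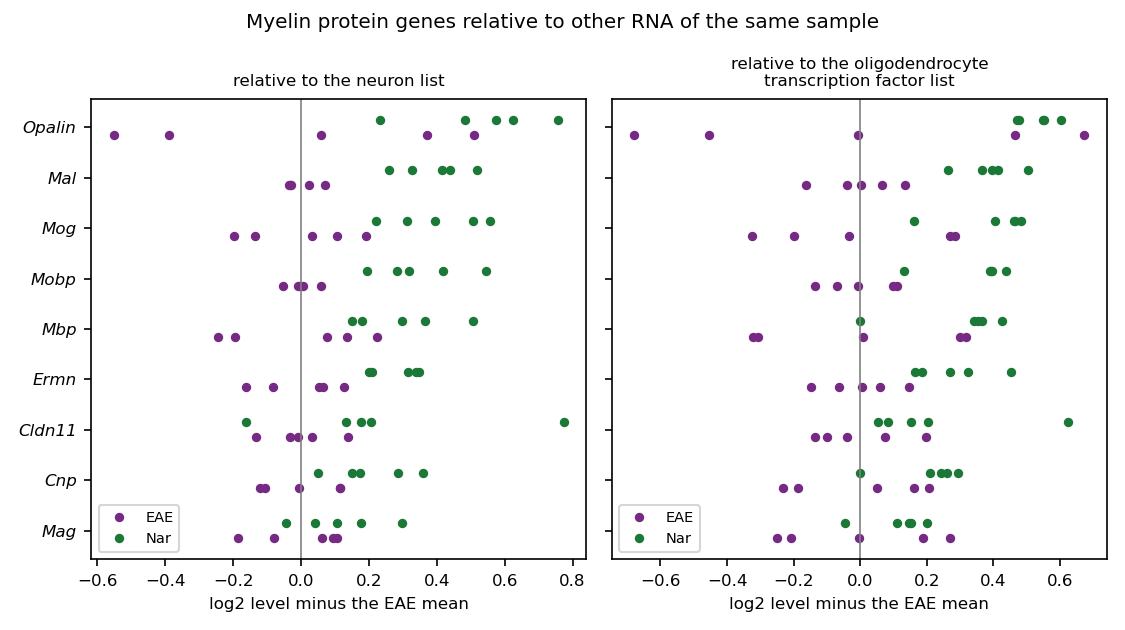
Log2 level of each gene relative to the neuron list (left) and to the oligodendrocyte transcription factor list (right) in every sample, with the mean of the EAE samples set to 0; each point is 1 sample, EAE in purple and Nar in green. Mal, Mobp and Ermn separate the groups on both scales, Mog on the left scale, and Mag overlaps on both.

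Other genes of the oligodendrocyte lineage, and of the paranode and node, were compared list by list. Of 28 further proteins of the myelin sheath and of mature oligodendrocytes, 3 rose and 1 fell in edgeR, with a median log2 fold change of 0.18. DESeq2 called 7 higher and 2 lower, limma-voom 6 and 1, the edgeR fit without Nar 4 called 7 and 2, and the fit with the mitochondrial share 1 and 0. Over all genes tested, DESeq2 called 5.22% lower, limma-voom 3.98%, edgeR without Nar 4 7.49% and the fit with the mitochondrial share 0.466%. Tmem88b, a membrane protein gene, rose by 0.34, Anln, which encodes the scaffold anillin, by 0.27 and Gjc3, a gap junction protein, by 0.25. Apod, a lipid carrier, fell by 0.79, with Nar 4 at 1495 CPM and the lowest EAE sample at 1454. Without Nar 4 it fell by 0.96 (edgeR adjusted p = 0.0009). Trf, the iron carrier transferrin and the most abundant of these 28, had 2127 ± 450 CPM in Nar and 2082 ± 92.6 CPM in EAE (SD, n = 5 each, log2 fold change 0.03, edgeR adjusted p = 0.894). Its highest value, 2920 CPM, was that of Nar 4, and without that sample the log2 fold change was −0.11 (edgeR adjusted p = 0.253).

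Of 10 genes of myelin lipid synthesis 3 rose and 0 fell, with a median of 0.25. With the mitochondrial share as a covariate 1 of the 3 was still called. Ugt8a, which makes the myelin lipid galactosylceramide, had a mean of 386 ± 26.6 CPM over the Nar samples and of 240 ± 21.7 over the EAE samples (SD, n = 5 each). Its log2 fold change of 0.69 (edgeR adjusted p = 0.000437) was larger than that of any of the 9 structural genes, and with the mitochondrial share as a covariate it was 0.58 (adjusted p = 0.0236). Fa2h, which hydroxylates the fatty acids of myelin lipids, rose by 0.59 and Cers2, which joins very long fatty acids to sphingoid bases, by 0.21. Neither passed with the covariate, where Fa2h was at 0.35 (edgeR adjusted p = 0.145) and Cers2 at 0.13 (0.347). The values of all 3 genes were free of overlap between Nar and EAE.

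Genes of the paranode and node, the borders of each myelin segment, mostly had lower means in Nar. This list also holds genes of axonal proteins, so it does not describe oligodendrocytes alone. Of 10 genes 2 were above 0, 1 rose and edgeR called 0 lower, with 4 lower at an unadjusted p below 0.05, and the median was −0.12. DESeq2 and the edgeR fit without Nar 4 called 1 lower each. The gene that rose was Cntn2, an adhesion molecule of the juxtaparanode (451 ± 40.1 against 359 ± 10.6 CPM, SD, n = 5 each, log2 fold change 0.33, edgeR adjusted p = 0.0137). Nfasc, the most abundant gene of the list, had a log2 fold change of −0.19 and did not pass (edgeR adjusted p = 0.192).

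Of 11 oligodendrocyte transcription factors edgeR called 0, as did DESeq2 and limma-voom, with a median of −0.01 and 1 gene at an unadjusted p below 0.05. Myrf had means of 220 ± 11.3 CPM over the Nar samples and 218 ± 17.6 over the EAE samples (SD, n = 5 each, log2 fold change 0.01, edgeR adjusted p = 0.929), and its sign changed under several scalings. Of 11 genes of newly formed oligodendrocytes 0 rose and 2 fell, with a median of −0.33: Fyn, a kinase active in early myelination (log2 fold change −0.31, edgeR adjusted p = 0.0244), and Itpr2, a calcium channel of this stage (−0.45, adjusted p = 0.0409). In edgeR 7 of these 11 were lower at an unadjusted p below 0.05, which 3290 of the 14595 genes tested reached in either direction. DESeq2 and the edgeR fit without Nar 4 called 4 lower each, limma-voom 3 and the fit with the mitochondrial share 0 (2 lower at an unadjusted p below 0.05). Of 10 precursor genes 1 rose, C1ql1 (15.3 ± 1.86 against 10.5 ± 1.04 CPM, SD, n = 5 each, log2 fold change 0.54, adjusted p = 0.0176), and 0 fell, with a median of 0.08. The fit with the mitochondrial share called 0 precursor genes, with 2 higher and 1 lower at an unadjusted p below 0.05. Of 9 genes described in oligodendrocytes in disease 0 passed, with a median of −0.77 and a summed level in Nar 4 of 3290 CPM, the highest of the Nar samples, beside 2242 to 3367 in EAE. At an unadjusted p below 0.05 edgeR counted 3 of these 9, all lower, while DESeq2 called 1 and limma-voom 3. Without Nar 4 edgeR called 6 of the 9, all lower, with a median of −1.13, and B2m, a subunit of MHC class I, was at −1.13 there (adjusted p = 0.00117) against −0.77 with all samples. The median over the 9 structural genes was above that of each of the other lists plotted, and whether these lists differ from each other was not tested.

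**Figure D5:**
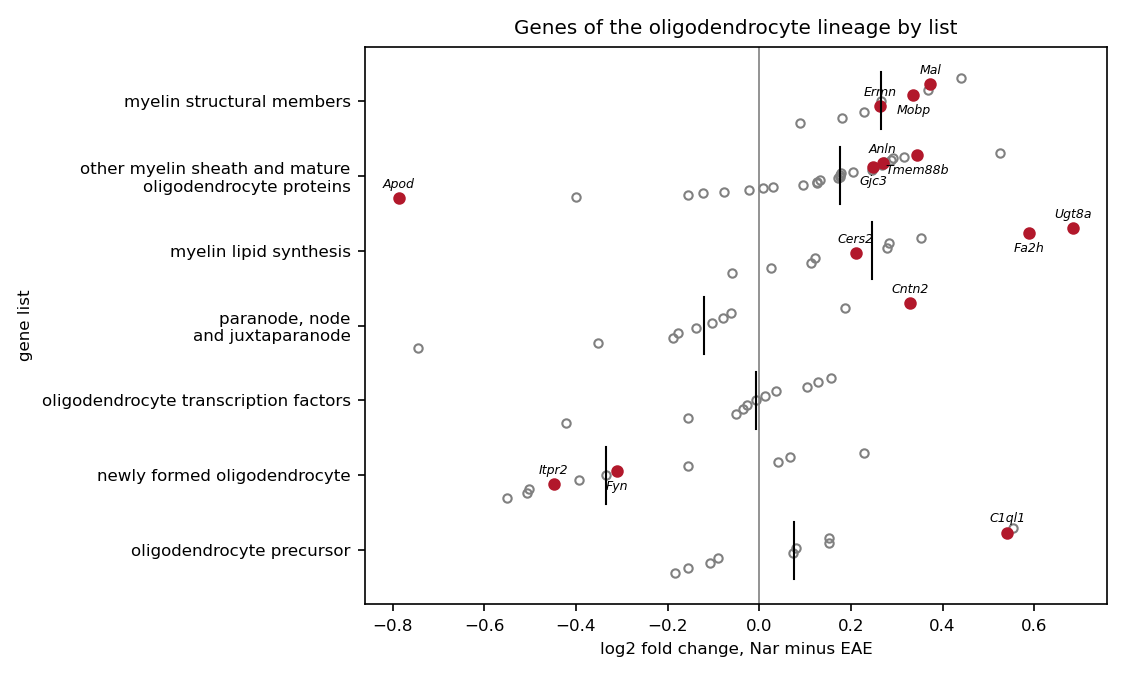
Log2 fold change, Nar minus EAE, of each gene of the 9 structural genes and of 6 further oligodendrocyte lists; filled red points passed the test and are named, open grey points did not, the vertical tick is the median of the list, and points of a list are spread vertically only for legibility. Medians run from 0.27 for the structural genes to −0.33 for genes of newly formed oligodendrocytes.

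Marker genes of other cell types were compared in the same samples. Of 14 neuron genes edgeR called 0, with a median of 0.01 and 3 at an unadjusted p below 0.05 (summed level 10958 to 12821 CPM in Nar, 10872 to 13535 in EAE). In either direction 3290 of the 14595 genes tested had such a p. DESeq2 and limma-voom each called 1 neuron gene, lower in Nar. The edgeR fit with the mitochondrial share called 1 neuron gene higher and 0 lower. At an unadjusted p below 0.05 that fit had 1 higher and 5 lower. Of 9 astrocyte genes 4 fell (Sox9, Mlc1, Aqp4 and Slc1a2, median −0.29, summed level 7291 to 10048 CPM in Nar and 9581 to 11080 in EAE). Of 12 microglia and macrophage genes 3 fell (Cd68, Lyz2 and Cd14, median −0.79, 334 to 1090 CPM against 985 to 1500). Of 7 tested T cell genes Cd3g fell (median −1.44, 2.07 to 13.7 CPM against 9.13 to 22.9), and of 6 fibroblast genes 5 fell, led by Col3a1 and Col1a1 (median −1.17, 57.5 to 86.9 CPM against 127 to 150). Nar 4 had the highest Nar value in the summed astrocyte, microglia and macrophage, T cell and fibroblast levels. Without Nar 4 edgeR called 5 astrocyte genes lower, 12 of 12 microglia and macrophage genes (median −1.22), 6 of 7 T cell genes (median −2.57) and 5 fibroblast genes. With all samples DESeq2 called 6 microglia and macrophage genes and 3 T cell genes lower, and limma-voom 7 and 1. In the fit with the mitochondrial share the lower calls numbered 1 astrocyte gene, 0 microglia and macrophage genes, 0 T cell genes and 3 fibroblast genes, with 3 microglia and macrophage genes and 0 T cell genes lower at an unadjusted p below 0.05.

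The summed level of the 9 structural genes, 23964 to 29488 CPM in Nar and 19486 to 26054 in EAE, stood beside these. Of 8 tested Schwann cell genes edgeR called 0 (median −0.09, 3 lower at an unadjusted p below 0.05, summed level 221 to 246 CPM in Nar and 230.1 to 262 in EAE), DESeq2 and limma-voom called 1 each, and Pmp2 was at 0 reads in all 10 samples. The sum mostly follows Pmp22, Drp2 and Cdh19, the most abundant of the list. Egr2 (0 to 74 reads per sample) and Prx (9 to 68) were near the floor. Their log2 fold changes were −2.21 (edgeR adjusted p = 0.0519) and −0.99 (0.147), while 2 of the 8 genes were higher in Nar. Similar sums therefore do not show that Schwann cell RNA was the same. Of 6 endothelial genes, 5 red blood cell genes and 1 tested muscle gene edgeR called 0, with 2 endothelial genes higher at an unadjusted p below 0.05, of which DESeq2 called 1. The part of these cell types in the difference of the structural genes was not tested.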

How the data were processed

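RNA of 10 mouse spinal cord samples was captured with poly-T beads, copied from random primers and sequenced on an Illumina instrument, per the labels' protocols, which name no strand-marking step. The submitters' processing notes name cutadapt and HISAT2 2.0.5, a read trimmer and an aligner. How reads were counted, and with which annotation, is not given in the sources used here. What the authors deposited is a table with a read count and an FPKM value for each of 21936 genes and 10 samples, per the file headers. Of 153986 FPKM values above 0.1, 100% lay within 1% of count divided by gene length and sample total. The coordinates of all 9 genes equal those of GENCODE M21 on GRCm38.

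Samples were grouped by title. The test of the counts used edgeR 4.0.16 under R 4.3.3 (filterByExpr, TMM scaling, robust quasi-likelihood fit, coded Nar minus EAE), with Benjamini-Hochberg adjustment over the 14595 genes left and a threshold of 0.05. CPM is counts per TMM-scaled total, and a prior count of 2 was added before taking log2 CPM. Ratios and relative levels were tested with two-sided exact permutation tests over 5 against 5 samples. Totals of 14504726 to 18961501 reads gave each of the 9 genes at least 435 reads in every sample. The fit was tested on simulated data.

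The 9 genes and the lists of other genes were chosen with earlier results of these data known, so their counts are no independent evidence. The text names, besides the 9 genes, from each list the genes past the threshold (at most 6 of smallest p) and the gene of highest mean CPM, and the 5 genes closest in pattern. Abundant genes of the marker lists are named only where a result turns on them. The Schwann cell genes other than Pmp22, and the genes overlapping exons, were named after their values were seen. Some genes that belong to the lists are not reported here. Alternatives were other scaling factors, filters and tools (DESeq2 1.42.0, limma-voom 3.58.1, log2 of FPKM with 1 or 0.1 added), thinned counts, the replicate number as a block, the mitochondrial share as a covariate, and leaving out samples.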

Additional observations from a re-analysis of the deposited data

Results flagged for a closer look

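In 5 of 54 sets of 5 values searched, 1 sample stood apart from the other 4 by a gap of over 0.71 of the range, and chance flags about 1 in 20 such sets. All 5 were Nar 4, and sets that share a sample or a reference list are not independent. Cldn11 stood at 732.7 CPM in Nar 4, above 447 to 512 in the other Nar samples. Relative to the oligodendrocyte transcription factor list, on the log2 scale, Cldn11 was at 4.01 in Nar 4 beside 3.44 to 3.59. On the same scale Mbp was at 8.48 in Nar 4 beside 8.82 to 8.90, Mog at 2.44 beside 2.69 to 2.76, and Mobp at 6.43 beside 6.69 to 6.74.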

How the results depend on the processing

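All 9 genes stayed higher in Nar in 23 of 24 other fits, the exception being the fit with the mitochondrial share as a covariate. The members called in Nar against EAE, 3 with all samples, numbered 0 with that covariate, 1 to 4 when 1 sample was left out (1 without Nar 1 or Nar 5) and 5 without both Nar 4 and EAE 3. With that covariate the log2 fold change was −0.053 for Mbp, −0.14 for Mag, −0.0065 for Cnp, −0.17 for Opalin, 0.026 for Nfasc and −0.17 for Bcas1. Myrf (0.01) turned to −0.0052 with upper quartile factors, −0.0017 without mitochondrial genes, −0.013 with log2(FPKM + 1), filtered or not, −0.013 with log2(FPKM + 0.1) and −0.011 without both Nar 4 and EAE 3, and ran from −0.031 to 0.034 when 1 sample was left out. Trf (0.03) turned to −0.0185 with log2(FPKM + 1), filtered or not, −0.0185 with log2(FPKM + 0.1) and −0.115 without both Nar 4 and EAE 3, and ran from −0.11 to 0.064 when 1 sample was left out. Pmp22 ran from −0.14 to 0.0016. Ratios between members that passed numbered 0 to 6 when 1 sample was left out (6 without EAE 5), members relative to the neuron list 4 to 6, and members relative to the oligodendrocyte transcription factor list 3 to 5 (5 without EAE 3).

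Same-numbered samples did not deviate together (r = −0.227 to 0.161, and in 0 of 5 pairs the best match). The labels name no pairing, and weak correlations cannot exclude one. With the replicate number as a block 4 of the 9 genes were called, Mog in addition (0.38, adjusted p = 0.0354). Sign-flip tests of 5 pairs cannot go below 0.0625, so under the block 0 members passed relative to either list.

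Over all genes edgeR called 230 higher and 344 lower, DESeq2 513 and 793, limma-voom 300 and 581, and the fit with the covariate 129 and 68. Depth gave at least 435 reads per gene and sample, so the spread between samples, with SEs from 0.0534 (Mal) to 0.223 (Opalin), sets the differences these data can show.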
